A study of Mus musculus with 9 samples.

Results

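The unfolded protein response genes described here are 10 of the 14461 genes in the deposited table: the endoplasmic reticulum (ER) chaperones Hspa5, Hsp90b1, Pdia4, Pdia6 and Calr, the ER-associated degradation genes Dnajb9 and Herpud1, and the stress factors Xbp1, Atf4 and Ddit3. They were chosen by name and found by matching the table's Ensembl gene IDs to mouse symbols, 1 ID each. RNA was sequenced from LSK cells, the lineage-negative, Sca-1-positive and c-Kit-positive cells that hold blood stem cells and early progenitors, sorted from bone marrow of parabiotic mice. Parabiotic mice are joined surgically and share a blood circulation, and the series design names an irradiated partner to whose marrow LSK cells had circulated. There were 3 libraries labelled circulating and 3 labelled irradiated, both with the strain label C57BL/6, and 3 labelled endogenous, with the strain label B6SJL CD45.1. Every group is from parabiotic mice. The sources used here do not give age, radiation dose, time after surgery or the partner from which each group was sorted. Whether replicates are separate animals is not stated, and p-values then cover only the spread between these 9 libraries, which may be technical.

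The ER is where secreted and membrane proteins are folded, glycosylated and joined by disulfide bonds. When unfolded protein builds up there, the membrane sensors IRE1, ATF6 and PERK act through the factors XBP1, ATF6 and ATF4 to raise chaperones and degradation genes, and prolonged PERK and ATF4 signalling raises Ddit3, which encodes CHOP. Secretory cells and granule-making myeloid progenitors carry large amounts of ER chaperone, and blood stem cells are known for strict control of protein folding. Chaperone transcripts and stress factor transcripts are therefore usually read separately.

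The promoters of the members are shown first. The sequences are from RefSeq (GRCm38.p6), and all 10 members had a promoter there, running from 250 bases before the start of transcription to 50 after it. The ER stress response element, a site for ATF6 with NF-Y, was searched on both strands as CCAAT, then 9 bases, then CCACG. It was present in 39 of 32851 promoters (0.119%) and in those of 4 of the 5 chaperones: Hspa5, Hsp90b1 (on both strands, at separate places), Pdia6 and Calr. The members were chosen by name as unfolded protein response genes, so their share with this element is no result of their changes here. Each run below is the 250 bases before the start, 5′ to 3′ on the gene's strand, with that element in capitals.
Hspa5, chr2:34771840-34772089, plus strand: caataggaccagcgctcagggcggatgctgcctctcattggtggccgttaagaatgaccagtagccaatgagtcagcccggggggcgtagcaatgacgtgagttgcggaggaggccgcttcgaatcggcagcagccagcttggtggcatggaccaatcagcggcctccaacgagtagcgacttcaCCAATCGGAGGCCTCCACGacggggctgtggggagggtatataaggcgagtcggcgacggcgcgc
Hsp90b1, chr10:86705445-86705694, minus strand: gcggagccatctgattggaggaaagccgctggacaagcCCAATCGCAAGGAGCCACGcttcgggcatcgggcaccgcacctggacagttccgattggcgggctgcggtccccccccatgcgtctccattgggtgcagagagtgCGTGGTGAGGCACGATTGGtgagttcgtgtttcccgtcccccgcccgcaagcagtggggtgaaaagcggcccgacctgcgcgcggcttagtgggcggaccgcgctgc
Pdia6, chr12:17266339-17266588, plus strand: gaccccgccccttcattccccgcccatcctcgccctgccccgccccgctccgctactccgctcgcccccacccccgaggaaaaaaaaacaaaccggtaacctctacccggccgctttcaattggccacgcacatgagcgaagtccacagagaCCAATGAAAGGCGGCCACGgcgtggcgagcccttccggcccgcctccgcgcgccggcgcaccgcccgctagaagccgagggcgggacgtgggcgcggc
Calr, chr8:84846932-84847181, minus strand: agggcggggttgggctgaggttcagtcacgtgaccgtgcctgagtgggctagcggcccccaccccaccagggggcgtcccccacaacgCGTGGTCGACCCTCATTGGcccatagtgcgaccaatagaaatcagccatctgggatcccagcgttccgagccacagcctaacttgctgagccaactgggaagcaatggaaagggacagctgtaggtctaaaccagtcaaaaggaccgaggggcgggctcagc
In Hspa5 the element lies 65 to 47 bases before the start. In Hsp90b1 the copies lie 212 to 194 and 107 to 89 bases before the start, in Pdia6 it lies 98 to 80 bases before, and in Calr it lies on the opposite strand, 162 to 144 bases before. The element was absent from the promoter windows of Pdia4, Dnajb9, Herpud1, Xbp1, Atf4 and Ddit3. Pdia4 and Herpud1 are shown because the first was called higher in circulating than in endogenous cells and the second was not.
Pdia4, chr6:47813513-47813762, minus strand: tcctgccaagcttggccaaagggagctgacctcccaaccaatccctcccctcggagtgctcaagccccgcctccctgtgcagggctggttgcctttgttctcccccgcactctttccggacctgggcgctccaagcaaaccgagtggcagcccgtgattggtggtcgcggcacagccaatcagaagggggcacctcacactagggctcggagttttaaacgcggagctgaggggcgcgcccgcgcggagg
Herpud1, chr8:94386179-94386428, plus strand: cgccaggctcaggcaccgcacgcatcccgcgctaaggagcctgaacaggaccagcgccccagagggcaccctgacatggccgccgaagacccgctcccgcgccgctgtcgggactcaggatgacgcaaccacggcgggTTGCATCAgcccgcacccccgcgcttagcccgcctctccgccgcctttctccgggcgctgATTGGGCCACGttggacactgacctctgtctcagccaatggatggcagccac
The capitals in Herpud1 mark an ATF4 and C/EBP composite form, TTGCATCA, 112 to 105 bases before the start, and the second ER stress response element, ATTGG, then 1 base, then CCACG, 52 to 42 bases before it. This second element was searched after the promoters had been read and was present in 12 promoters (0.0365%). TTGCATCA was present in 0.895% of promoters and its other form TGATGNAAT in 0.965%, and no member held the second form. The core TGACGTGG of the XBP1 and ATF6 element was present in 0.676% of promoters and in no member. A match is a string of letters and not a site or a cause, and no match says only that the letters are not in this window.

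Recovered depth ran from 14065855 to 27012345 estimated counts per library. Across the 9 libraries the members held from 139 estimated counts (the lowest Dnajb9 value) to 35671 (the highest Hspa5 value), and all 10 passed the filter on low values. The fit kept 13771 genes with a deposited value of at least 1 in at least 3 libraries. The median gene's SD on the log2 scale was 0.38 in circulating, 0.21 in irradiated and 0.26 in endogenous libraries, so the circulating libraries varied most. The sorting label was checked with Ly6a, the gene of Sca-1, and Kit, the gene of c-Kit. Both were present in every library, and Kit fell to 379 ± 45.1 in circulating cells, against 878 ± 137 in endogenous cells (SD, n = 3 each; log2 fold change -1.20, SE 0.13, limma adjusted p = 0.00257), with 587 ± 31.4 in irradiated cells. Ly6a stood at 137 ± 9.21, 174 ± 23.9 and 180 ± 12.8 in circulating, irradiated and endogenous cells and was not called in any comparison.

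Some genes did not follow the strain labels. Of all genes tested, 4 were called between circulating and irradiated cells, and these are named after their values were seen: Ctse, Cxcr4 and Dynlt1b were higher and Adgrg1 lower in circulating cells. Ctse averaged 623 ± 105 in circulating cells, against 61.5 ± 15.2 in irradiated cells, and stood at 759 ± 63.3 in endogenous cells. Cxcr4 averaged 62.8 ± 4.32, 11.0 ± 3.11 and 47.3 ± 3.33 in the same order. Dynlt1b averaged 198 ± 38.2, 20.7 ± 1.39 and 200.1 ± 24.8, and since near-identical copies of it exist, its counting is uncertain. Circulating cells were thus near endogenous cells for these 3 genes, although their strain label is that of irradiated cells. Adgrg1 went the other way, with 627 ± 94.8 in circulating cells, against 1214 ± 26.9 in irradiated and 1476 ± 173 in endogenous cells. Ctse (chr1:131638306-131675505, GRCm38) and Cxcr4 (chr1:128588199-128592293) lie on the chromosome of Ptprc (chr1:138062861-138175708), the gene whose alleles are typed as CD45.1 and CD45.2, while Dynlt1b (chr17:6430112-6436296) and Adgrg1 (chr8:94974751-95014217) do not. Strain and group cannot be told apart in the comparisons with endogenous cells if the labels hold, and in the comparison with irradiated cells if they do not.

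Values below are the authors' normalised signal, an estimated count divided by a scaled library size, and fold changes are limma's on log2(value + 1), positive where the first group named is higher. Levels are compared between genes only per kilobase of exon. On that scale circulating cells held the most Hspa5 (337 ± 126), then Calr (325 ± 140), Hsp90b1 (279 ± 94.6), Pdia6 (203 ± 54.9), Pdia4 (155 ± 40.9), Xbp1 (89.8 ± 37.9), Herpud1 (76.5 ± 8.47), Atf4 (52.2 ± 11.7), Ddit3 (8.51 ± 0.92) and Dnajb9 (3.72 ± 0.34) (SD, n = 3). The libraries of each neighbouring pair overlapped from Hspa5 down to Herpud1, and those of Herpud1, Atf4, Ddit3 and Dnajb9 did not. In irradiated cells Calr stood first at 311 ± 56.1 per kilobase, clear of Hspa5 at 214 ± 32.0, and in endogenous cells Calr stood first at 172 ± 12.0, clear of Hsp90b1 at 142 ± 8.27. In endogenous cells Herpud1 (69.4 ± 7.56) stood above Pdia4 (65.9 ± 20.0) with overlapping libraries, and in all 3 groups Ddit3 and Dnajb9 were the last pair.

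**Figure D1:**
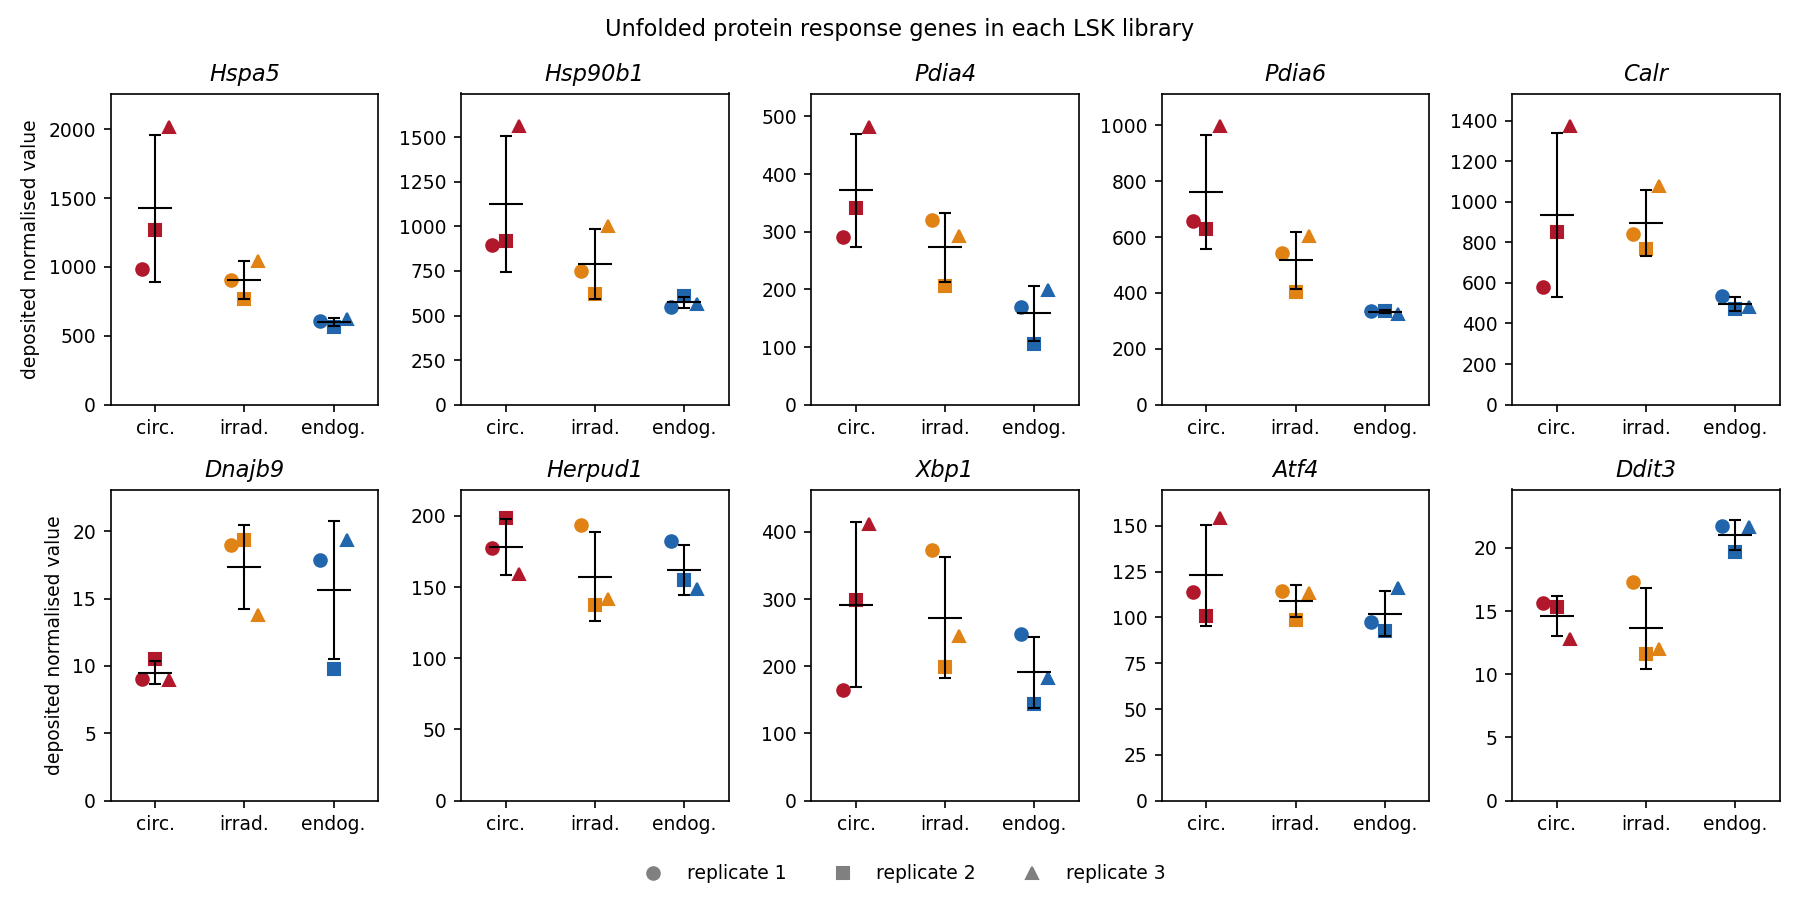
Deposited normalised value (vertical axis, linear from 0) of the 10 members in the 9 libraries, by group (circulating, irradiated, endogenous, left to right), with the group mean and SD as black bars (n = 3). The endogenous libraries lie lowest for the 5 chaperones in the upper row and highest for Ddit3, and circulating replicate 3 is the highest library for each chaperone.

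The first question was how circulating LSK cells differ from endogenous ones. Of the 10 members, 4 rose in circulating cells and none fell: the chaperones Hspa5, Hsp90b1, Pdia4 and Pdia6. In this comparison limma called 8.63% of all genes at an adjusted p under 0.05, 5.33% higher and 3.3% lower. Calr, Dnajb9, Herpud1, Xbp1, Atf4 and Ddit3 did not pass. The 5 chaperones had a median log2 fold change of 1.16, against -0.04 for all genes tested, and the stress factors Xbp1, Atf4 and Ddit3 had a median of 0.25. In bulk libraries a change in the share of a cell type and a change in RNA per cell cannot be told apart.

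Hspa5 encodes BiP, the ER's main Hsp70 chaperone and the brake on the stress sensors. Its values were 987, 1269 and 2020 in circulating replicates 1 to 3, 907, 770 and 1040 in irradiated replicates and 611, 564 and 622 in endogenous replicates. All circulating libraries lay above all endogenous ones, and the circulating and irradiated libraries overlapped. The ratio of circulating to endogenous means was 2.38, with a log2 fold change of 1.19 (SE 0.21, 95% interval 0.72 to 1.65, limma adjusted p = 0.0112).

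Hsp90b1 encodes GRP94, the Hsp90 of the ER, which folds integrins and Toll-like receptors. It stood at 894, 916 and 1565 in circulating, 752, 619 and 1005 in irradiated and 545, 610 and 565 in endogenous libraries. Circulating replicate 3 was far above the other 2 circulating libraries, yet none of the 3 fell within the endogenous range. Its log2 fold change for circulating against endogenous cells was 0.92 (SE 0.22, limma adjusted p = 0.0290). Exons of Hsp90b1 overlap those of 1810014B01Rik and Gm15344, whose highest values in any library were 28.8 and 1.20, and the library chemistry does not mark strand.

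Pdia4 and Pdia6 encode protein disulfide isomerases, which make and rearrange disulfide bonds. Pdia4 had 292, 342 and 481 in circulating, 321, 205 and 292 in irradiated and 170, 105 and 199 in endogenous libraries. Its circulating and endogenous libraries did not overlap, and endogenous replicate 2 was the lowest of all 9. The log2 fold change was 1.24 (SE 0.26, limma adjusted p = 0.0192). Pdia6 had 657, 629 and 998 in circulating, 541, 405 and 605 in irradiated and 337, 334 and 326 in endogenous libraries. It was the only member whose circulating libraries all lay above all irradiated ones, and its endogenous libraries were nearly level. Its log2 fold change was 1.16 (SE 0.19, limma adjusted p = 0.0079), the smallest adjusted p among the members. Exons of Pdia6 overlap those of Atp6v1c2 on the opposite strand, which was not tested here.

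Calr encodes calreticulin, the calcium-binding lectin chaperone that holds glycoproteins while they fold. It had 578, 853 and 1374 in circulating, 840, 767 and 1076 in irradiated and 536, 473 and 480 in endogenous libraries. Circulating replicate 1 sat close to the highest endogenous library while replicate 3 was the highest of all 9. The log2 fold change was 0.82 (SE 0.25, 95% interval 0.28 to 1.37, limma adjusted p = 0.0634), so it did not pass, although the groups did not overlap. Without circulating replicate 1 it was 1.13 and passed (limma adjusted p = 0.00609). Without circulating replicate 3 it was 0.50 and did not pass.

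Herpud1 and Dnajb9 serve ER-associated degradation: HERP helps to assemble the export complex, and ERdj4, the product of Dnajb9, is a co-chaperone of BiP that also restrains IRE1. Herpud1 had 177, 199 and 159 in circulating, 194, 137 and 142 in irradiated and 182, 155 and 149 in endogenous libraries, and all 3 groups overlapped. Its log2 fold change for circulating against endogenous cells was 0.14 (95% interval -0.22 to 0.49, limma adjusted p = 0.621), and it was -0.06 when libraries were scaled by their total. Dnajb9 had 9.02, 10.5 and 8.97 in circulating, 19.0, 19.3 and 13.8 in irradiated and 17.8, 9.79 and 19.3 in endogenous libraries. Endogenous replicate 2 lay inside the circulating range, and the other endogenous libraries lay above it. The log2 fold change was -0.62 (95% interval -1.30 to 0.07, limma adjusted p = 0.233). Dnajb9 rests on 139 to 529 estimated counts per library, the lowest range of the 10 members.

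Among the stress factors, Xbp1 encodes the transcription factor whose messenger RNA is spliced by IRE1. The deposited values are per gene, so spliced and unspliced forms were not separated. Xbp1 had 165, 299 and 411 in circulating, 373, 199 and 246 in irradiated and 248, 144 and 182 in endogenous libraries. Circulating replicate 1 lay inside the endogenous range and replicate 3 was the highest of all 9. Its log2 fold change for circulating against endogenous cells was 0.55 (95% interval -0.17 to 1.26, limma adjusted p = 0.308).

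Atf4 encodes the factor whose translation rises when eIF2 is phosphorylated, a step that RNA levels do not show. It had 114, 101 and 154 in circulating, 115, 98.6 and 114 in irradiated and 97.6, 92.7 and 116 in endogenous libraries. Only circulating replicate 3 stood clear of the endogenous range. The log2 fold change was 0.25 (95% interval -0.13 to 0.63, limma adjusted p = 0.382). Ddit3, which encodes CHOP, had 15.6, 15.3 and 12.8 in circulating, 17.3, 11.6 and 12.0 in irradiated and 21.8, 19.7 and 21.7 in endogenous libraries. Its endogenous libraries all lay above the other 6, the reverse of the chaperones. The log2 fold change for circulating against endogenous cells was -0.50 (95% interval -1.06 to 0.06, limma adjusted p = 0.237). Exons of Ddit3 overlap those of Mars on the opposite strand, whose highest value was 285, and reads of the 2 genes are not separated by strand.

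In all, 5 members were higher without overlap between circulating and endogenous libraries (the chaperones) and 1 was lower (Ddit3), against 14.6% and 12.9% of all genes. Pdia6 passed in all 20 alternative settings of this comparison, Hspa5 in 19, Pdia4 in 16, Hsp90b1 in 13 and Calr in 3. Hsp90b1 did not pass without circulating replicate 3 (0.66, limma adjusted p = 0.0601), endogenous replicate 1 (0.89, 0.0972), replicate 2 (0.97, 0.0722) or replicate 3 (0.91, 0.0787). Pdia4 did not pass without circulating replicate 3 (1.04, limma adjusted p = 0.0556), endogenous replicate 1 (1.32, 0.0541) or replicate 2 (0.98, 0.0620). Scaling matters little to the 4 but much to the whole table: 61.73% of called genes were higher in circulating cells as deposited, 29.17% when libraries were scaled by their total, which moved the median gene to -0.22, and 48.55% with upper quartile scaling. All 4 passed under both scalings.

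**Figure D2:**
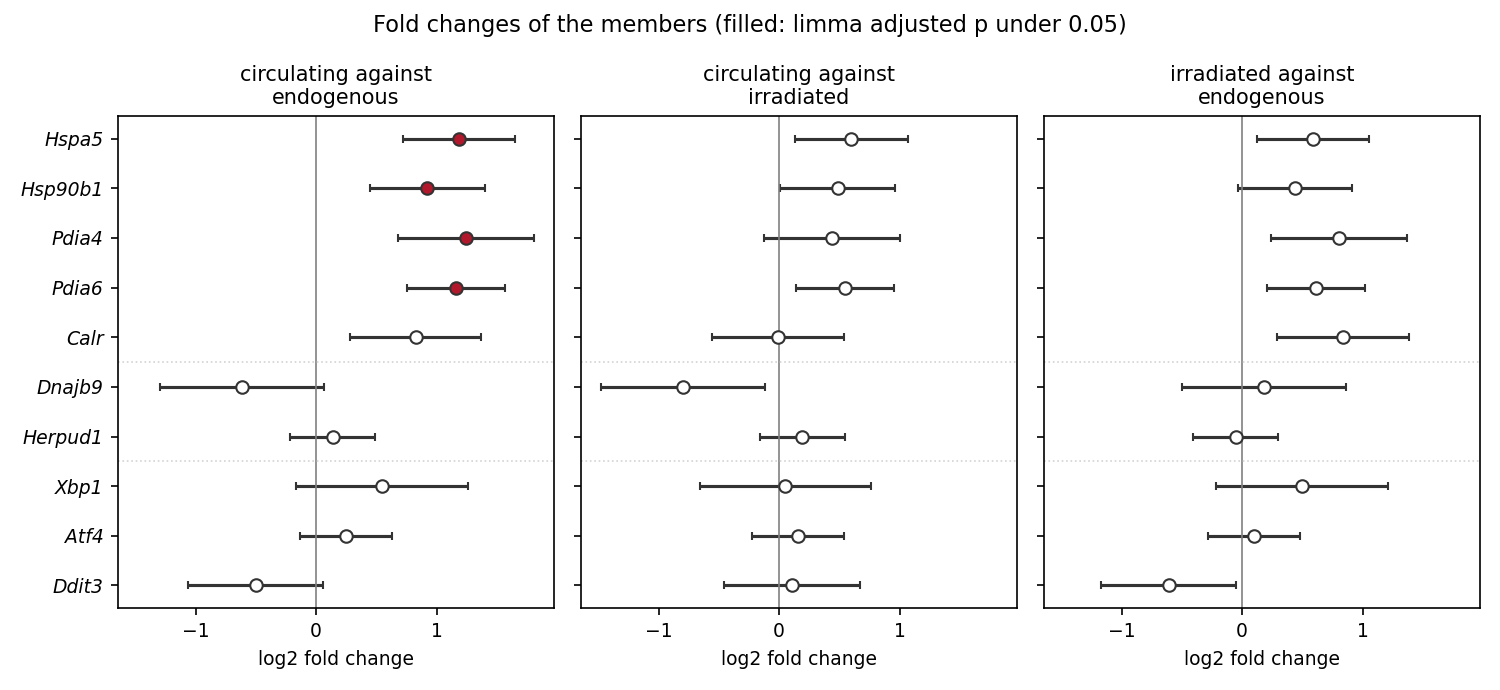
Log2 fold change of each member (horizontal axis, limma on log2(value + 1)) with its 95% interval in the 3 comparisons; filled points passed an adjusted p under 0.05. Filled points are Hspa5, Hsp90b1, Pdia4 and Pdia6 in circulating against endogenous cells, and no point is filled in the other panels.

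The second comparison, circulating against irradiated cells, concerns LSK cells that share a strain label. None of the 10 members passed in limma, where 0.029% of all genes were called (0.0218% higher, 0.00726% lower), and voom on recovered estimated counts called none of them either. At an unadjusted p under 0.05 there were 4 of 10 members, against 11.42% of all genes. These were Hspa5 (log2 fold change 0.60, limma adjusted p = 0.349), Hsp90b1 (0.48, 0.429), Pdia6 (0.55, 0.328) and Dnajb9 (-0.80, 0.380). Pdia6 was higher and Dnajb9 lower without overlap, against 7.46% and 9.26% of all genes. Pdia4 had a log2 fold change of 0.44 (95% interval -0.13 to 1.00). Calr stood at -0.01 (95% interval -0.56 to 0.53), and it was 0.29 without circulating replicate 1. For the stress factors the values were 0.05 for Xbp1 (95% interval -0.66 to 0.76), 0.16 for Atf4 (-0.23 to 0.54) and 0.11 for Ddit3 (-0.46 to 0.67), with Xbp1 at -0.02 when libraries were scaled by their total. Herpud1 was 0.19 (95% interval -0.16 to 0.54).

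The third comparison set irradiated against endogenous cells. None of the 10 members passed in limma, where 0.603% of all genes were called (0.472% higher, 0.131% lower), and none passed with voom. At an unadjusted p under 0.05 there were 5 members, against 14.91% of all genes. All 5 chaperones were higher in irradiated cells without overlap, and Ddit3 was lower without overlap, against 15.2% and 12.5% of all genes. Their log2 fold changes were 0.84 for Calr (95% interval 0.29 to 1.38, limma adjusted p = 0.149), 0.81 for Pdia4 (0.24 to 1.37, 0.171), 0.62 for Pdia6 (0.21 to 1.02, 0.152), 0.59 for Hspa5 (0.12 to 1.05, 0.222) and 0.44 for Hsp90b1 (-0.04 to 0.91, 0.383). Ddit3 stood at -0.61 (95% interval -1.17 to -0.05, limma adjusted p = 0.294). Xbp1 stood at 0.50, Dnajb9 at 0.18, Atf4 at 0.10 and Herpud1 at -0.05, the Atf4 value turning to -0.04 when libraries were scaled by their total.

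The count in this comparison depends on which libraries set the spread. Fitted on the irradiated and endogenous libraries alone, which leaves out the more variable circulating ones, Calr (limma adjusted p = 0.00633), Hspa5 (0.0190) and Pdia6 (0.0325) passed. Calls rose across the whole table too. That fit called 503 of 13424 genes higher and 278 lower, against 65 and 18 of 13771 in the main fit. With sample weights the same 3 genes passed, with 615 of 13771 genes called higher and 282 lower. Calr alone also passed without circulating replicate 1 (limma adjusted p = 0.0439) or replicate 3 (0.0338). There 200 of 13660 and 188 of 13684 genes were called higher. The comparisons with endogenous cells share the endogenous libraries, so the 5 chaperones' positive values in both are not independent of each other. Side by side, circulating and irradiated cells stood at 1.19 and 0.59 above endogenous cells for Hspa5, 0.92 and 0.44 for Hsp90b1, 1.24 and 0.81 for Pdia4, 1.16 and 0.62 for Pdia6, and 0.82 and 0.84 for Calr.

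To set the chaperones against the stress factors within a library, the mean log2(value + 1) of Xbp1, Atf4 and Ddit3 was subtracted from that of the 5 chaperones. The difference was 3.20, 3.21 and 3.60 in circulating, 2.77, 2.98 and 3.34 in irradiated and 2.28, 2.45 and 2.37 in endogenous libraries. Every circulating and irradiated library lay above every endogenous one, and irradiated replicate 3 lay within the circulating range. The group means were 3.34 ± 0.22, 3.03 ± 0.29 and 2.37 ± 0.08 in circulating, irradiated and endogenous cells (SD, n = 3 each). The chaperone mean itself ran from 9.30 to 10.18 in circulating, 8.96 to 9.50 in irradiated and 8.48 to 8.67 in endogenous libraries. The factor mean ran from 6.09 to 6.58, 5.98 to 6.53 and 6.03 to 6.36 in the same order, so its groups overlapped.

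Members also differed in how closely they followed the chaperones' mean profile, centred per gene over the 9 libraries; each chaperone forms part of that mean. The mean absolute log2 difference from it was 0.07 for Hspa5, 0.08 for Pdia6, 0.10 for Hsp90b1, 0.16 for Pdia4 and 0.17 for Calr. It was 0.27 for Xbp1, 0.32 for Atf4, 0.39 for Herpud1, 0.63 for Ddit3 and 0.71 for Dnajb9. Among 9306 other genes with a mean value of at least 10, the nearest were Gng12 (0.06), Gpi1 (0.09), Pgam1 (0.09), Rab3d (0.09) and Ctsz (0.10). Gpi1 and Pgam1 encode glycolytic enzymes, Gng12 a G protein subunit, Rab3d a secretory vesicle GTPase and Ctsz a lysosomal protease. Gng12 had means of 227 ± 66.9 (circulating), 181 ± 20.8 (irradiated) and 110 ± 5.43 (endogenous). It was picked for nearness to a profile that includes Hspa5, so sharing the order of the Hspa5 means follows from the choice.

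The wider ER machinery was read through 5 further lists, of which 96 genes were in the deposited table and 94 were tested. In circulating against endogenous cells 23 rose and 1 fell, with a median log2 fold change of 0.31. Of all genes tested, 5.33% were called higher and 3.3% lower, with a median of -0.04, and these also stand beside each list below. Other ER folding genes made up 10 of the 23, out of 24 tested, with none lower and a list median of 0.65. The called genes with the largest changes were Sdf2l1, a BiP-associated factor (2.06 on the log2 scale, SE 0.34, limma adjusted p = 0.00828), the oxidase Ero1l, which recharges disulfide isomerases (1.28, SE 0.26, 0.0174), Manf, a secreted ER protein (1.11, SE 0.22, 0.0159), and the BiP co-chaperone Dnajb11 (1.09, SE 0.19, 0.0103). Sdf2l1 had 109, 181 and 311 in circulating, 147, 90.2 and 166 in irradiated and 46.5, 35.0 and 48.6 in endogenous libraries, so each circulating library was above each endogenous one.

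ER entry and glycosylation supplied the other large share, with 10 of 24 tested genes higher, none lower and a median of 0.51. The leading genes were Rpn1, a subunit of the oligosaccharyltransferase (1.14, SE 0.22, limma adjusted p = 0.0149), Ssr2, of the translocon-associated complex (0.96, SE 0.19, 0.0157), Spcs3, of the signal peptidase (0.88, SE 0.22, 0.0346), and Ddost, also of the oligosaccharyltransferase (0.84, SE 0.20, 0.0299). Rpn1 had 557, 911 and 1030 in circulating, 618, 533 and 822 in irradiated and 402, 378 and 319 in endogenous libraries, with no overlap between circulating and endogenous cells. Of 19 ER-associated degradation genes 1 rose, Selenos (0.74, SE 0.18, limma adjusted p = 0.0300), with a list median of 0.20, and that share is near the 5.33% of all genes called higher.

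The sensors and their proteases had a median of -0.13 over 9 genes. None rose, and Mbtps2, which encodes the site-2 protease that releases ATF6, fell (log2 fold change -1.09, SE 0.27, limma adjusted p = 0.0346). Mbtps2 was not called with sample weights, with voom, on the 2 groups alone, with either replicate block, or when any library other than circulating replicate 1 was left out. Of 25 listed eIF2 kinases and ATF4 targets, 20 were in the table and 18 were tested. The ATF4 targets Trib3, Atf3, Chac1, Cebpb and Stc2 were not in the table, so the list median of 0.11 leaves them out. Called higher were 2 of the 18, against 5.33% of all genes: Mthfd2, of mitochondrial folate metabolism (0.96, SE 0.27, limma adjusted p = 0.0481), and Psat1, of serine synthesis (0.60, SE 0.16, 0.0389). As a list outside the ER, 12 cytosolic and mitochondrial heat shock genes had a median of 0.43, and 3 were called higher, against 5.33% of all genes. The 3 that rose, Hspe1 (0.68, SE 0.19, limma adjusted p = 0.0451), Hspd1 (0.55, SE 0.15, 0.0422) and Hspa9 (0.40, SE 0.11, 0.0442), encode mitochondrial chaperones.

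The count of 23 depended on single libraries and on the fit. Leaving out circulating replicate 3 gave 9, circulating replicate 2 gave 13, irradiated replicate 1 gave 12 and irradiated replicate 3 gave 15. Leaving out endogenous replicate 1 gave 4, replicate 2 gave 7 and replicate 3 gave 8. The count was 4 on the 2 groups alone and 13 when libraries were scaled by their total. Calls fell across the whole table as well. All genes called higher, 734 in the main fit, numbered 298, 549, 407 and 433 in the first 4 of these refits. They numbered 185, 221 and 307 without the endogenous replicates in turn, 165 on the 2 groups alone and 336 with total scaling.

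**Figure D3:**
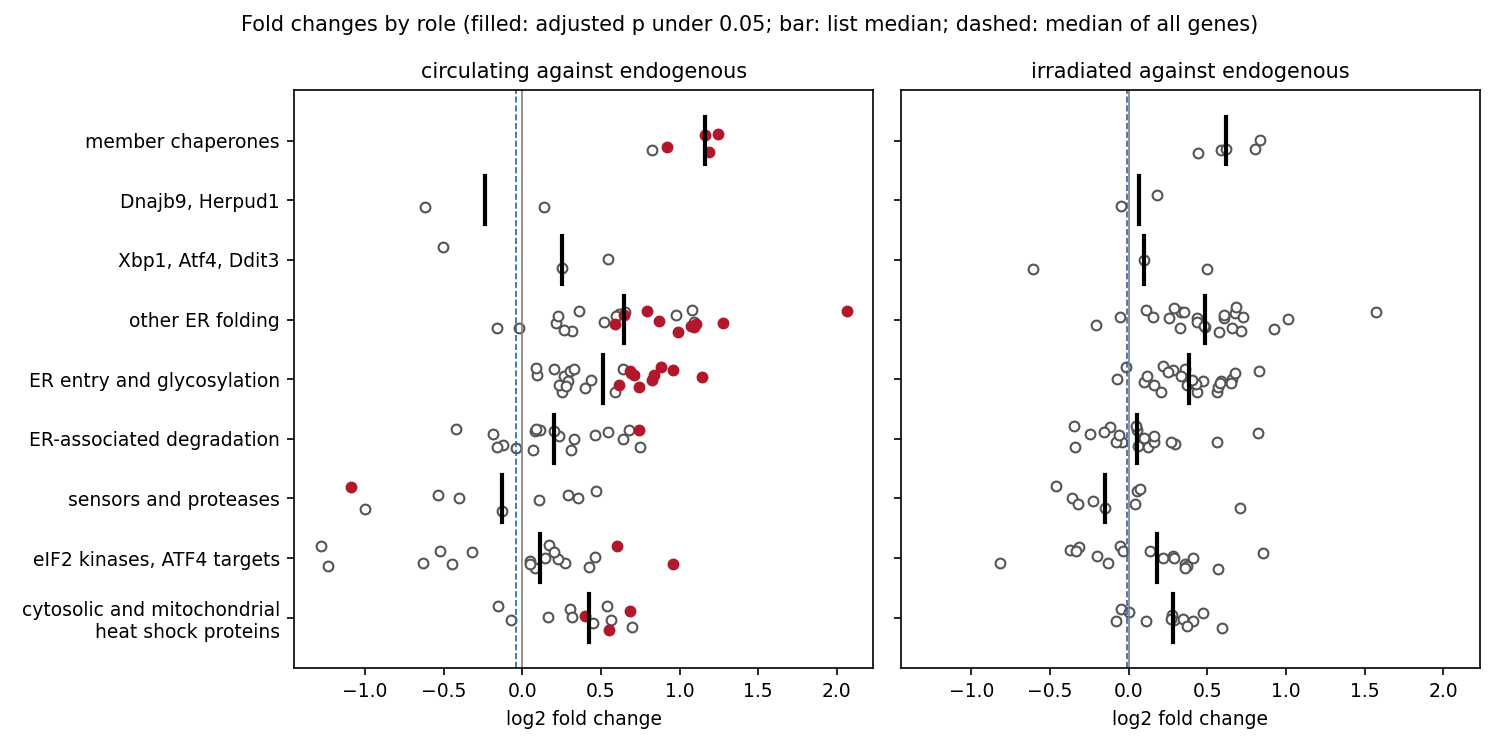
Log2 fold changes (horizontal axis) of the members and of the further lists by role, in circulating against endogenous (left) and irradiated against endogenous cells (right); filled points passed an adjusted p under 0.05, black bars are list medians and the dashed line is the median of all genes. In the left panel the filled points lie mostly among the chaperones, other ER folding genes and ER entry genes, and no point in the right panel is filled.

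In the other comparisons none of the 94 genes passed in limma or with voom. At an unadjusted p under 0.05 there were 12 of 94 in circulating against irradiated cells, near the 11.42% of all genes, and 30 of 94 in irradiated against endogenous cells, against 14.91% of all genes. The list medians for circulating against irradiated cells were 0.26 for ER folding, 0.17 for ER entry, 0.18 for degradation, -0.08 for sensors and -0.07 for eIF2 kinases and ATF4 targets. For irradiated against endogenous cells the medians were 0.48, 0.38, 0.05, -0.15 and 0.18 in that order. Heat shock genes had medians of 0.14 and 0.28, again with none passing.

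The 2 genes of each list with the highest mean deposited value, which is not divided by length, show the sizes. In circulating against irradiated and irradiated against endogenous cells, the log2 fold changes were 0.51 and 0.48 for Pdia3 and 0.36 and 0.72 for P4hb, both disulfide isomerase genes. They were 0.32 and 0.83 for Rpn1, and 0.10 and 0.20 for Stt3a, the catalytic subunit gene of the oligosaccharyltransferase. Of degradation genes, Vcp, an ATPase that extracts proteins from the ER, stood at -0.18 and 0.27, and Edem2, which trims mannose, at 0.34 and 0.12. Rtcb, the ligase that joins spliced Xbp1, stood at 0.26 and -0.15, and Mbtps1, the site-1 protease gene, at -0.08 and -0.46. The serine and glycine enzymes Phgdh and Shmt2 stood at -0.08 and 0.29, and at 0.09 and 0.37. Of heat shock genes, Hsp90ab1 stood at 0.18 and 0.27 and Hspa8 at 0.05 and 0.11. None of these 12 genes passed in either comparison.

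The ER stress response element was found in 33 genes that are not members, of which 14 were in the table and tested. Of these, 1 rose in circulating against endogenous cells, Dnajc3, a BiP co-chaperone (0.79 on the log2 scale, SE 0.20, limma adjusted p = 0.0358), and 13 were not called, a share near the 5.33% of all genes called higher. The median of the 14 was 0.35. Others of the ER among them were Creld2 (0.98, limma adjusted p = 0.0759), Canx (0.52, 0.154), Ero1lb (0.62, 0.285), Derl3 (0.64, 0.550), Syvn1 (-0.12, 0.840) and the mannosyltransferase gene Alg12 (-0.57, 0.355), named after their values were seen. None of the 14 passed in the other comparisons. The count was 0 when any library other than circulating replicate 1 was left out, and 3 without circulating replicate 1.

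Most markers of granulocyte and monocyte progenitors were, like the chaperones, higher in circulating and irradiated than in endogenous cells. Of that list, 13 of 14 genes were in the table and none was at a count of 0 in any library. Their summed values ran from 14060 to 42090 in circulating, 8737 to 17720 in irradiated and 2629 to 3613 in endogenous libraries. Mpo alone held 9410 to 28140 of the circulating sums. All 13 had positive log2 fold changes in irradiated against endogenous cells, but Gfi1 (0.05) and Csf1r (0.08) were near level. In circulating against endogenous cells 9 of the 13 rose, against 5.33% of all genes, and in irradiated against endogenous cells 6 rose, against 0.472%. In circulating against irradiated cells none passed in limma or with voom, with 6 at an unadjusted p under 0.05, against 11.42% of all genes. Their part in the chaperone values was not tested.

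Mpo, which encodes myeloperoxidase, a granule protein folded with the help of calreticulin, had 9410, 17260 and 28140 in circulating, 8473, 5365 and 11940 in irradiated and 2334, 1648 and 1734 in endogenous libraries. Within the circulating group, replicate 3 was highest for Mpo and for all 5 chaperones. The proteases Elane, Prtn3 and Ctsg, stored in the same granules, had circulating against endogenous log2 fold changes of 3.68, 2.80 and 3.64. Circulating replicate 3 was also their highest library, at 5100, 1787 and 2667. Not every gene of the progenitor marker list had this order. In circulating replicates 1 to 3, Irf8 had 82.65, 300.5 and 194.4, Gfi1 had 8.7, 29.5 and 14.2, and Cebpe had 2.7, 7.9 and 4.5. These were highest in replicate 2, and the rest of the list in replicate 3.

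**Figure D4:**
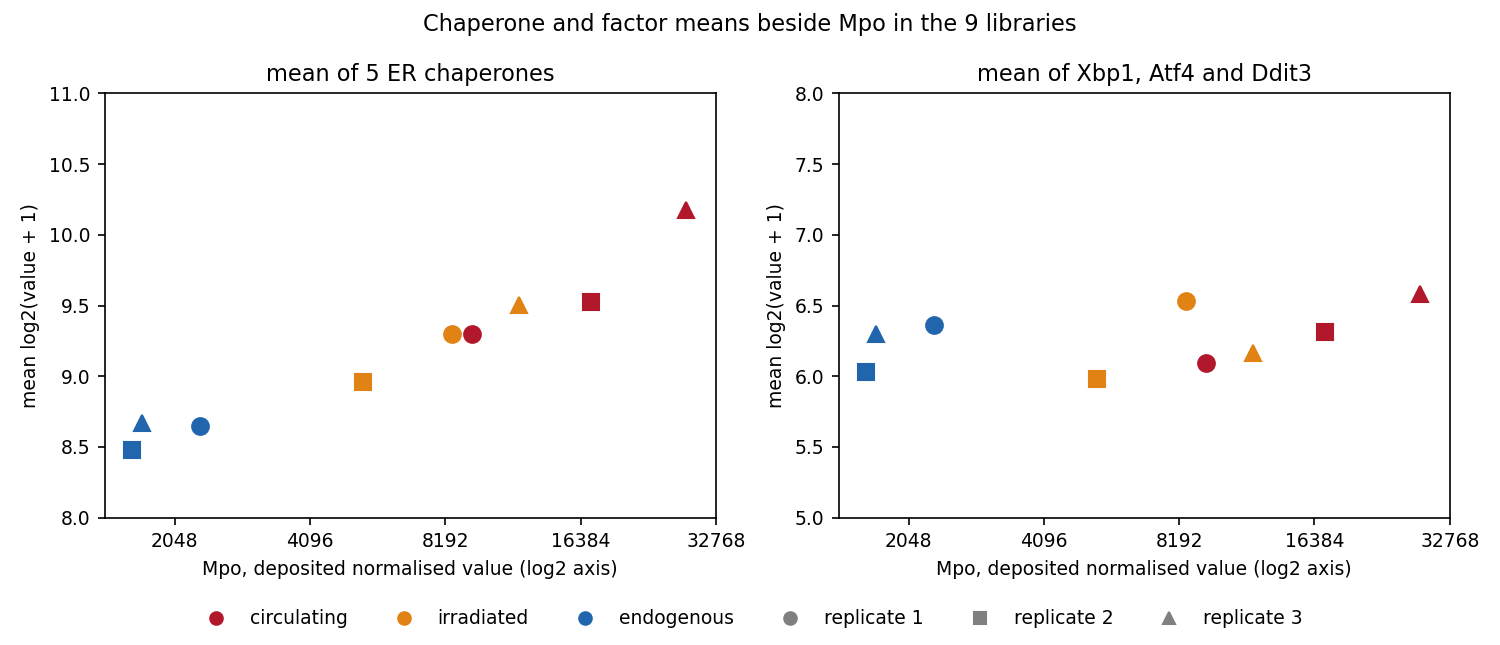
Mean log2(value + 1) of the 5 chaperones (left) and of Xbp1, Atf4 and Ddit3 (right) in each library against its Mpo value (horizontal log2 axis); colours are groups and shapes replicates, and both vertical axes span the same range. Libraries with more Mpo lie higher in the left panel, up to circulating replicate 3 at 10.18, and the endogenous factor means lie among the others in the right panel.

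Plasma cells, which carry much Xbp1, were followed through 8 markers, of which Xbp1 and Derl3 also belong to the ER lists. Their summed values ran from 1071 to 1800 in circulating, 275 to 1526 in irradiated and 362 to 778 in endogenous libraries, and the largest single value in each library was that of Jchain or Xbp1. Jchain had 839, 1334 and 1313 in circulating, 1054, 55.2 and 126 in irradiated and 472, 231 and 148 in endogenous libraries. Irradiated replicate 1, which stood apart for Jchain, was also the irradiated library with the most Xbp1. None of the 8 markers passed in limma or voom in any comparison. At an unadjusted p under 0.05 there was 1 in circulating against endogenous cells, 1 in circulating against irradiated cells and none in irradiated against endogenous cells. The shares of all genes were 26.66%, 11.42% and 14.91% in that order. The part of plasma cells in the Xbp1 values was not tested.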

How the data were processed

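RNA from 9 bone marrow LSK libraries was measured, 3 per labelled group. Per the labels' protocols, amplification used SMART-Seq v4 and library preparation used Nextera XT, which leaves strand unmarked. Per the submitters' processing notes, mm10, CASAVA, RSEM 1.3.1 and limma were used, with no role or order given. The deposited values are the authors' normalised signal: 100% of the values in each column are an estimated count with 2 decimals plus an offset, multiplied by 1 constant. From 11.0% to 21.4% of the recovered counts were whole within 0.001, so the main fit used no count model. Voom on these counts was among the alternatives. Recovered depth was 14065855 to 27012345 estimated counts, which covers counting error only, since reads carry no molecular identifiers.

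Symbols and positions came from GENCODE M21 (GRCm38), with 14405 of 14461 genes matched, and promoters from RefSeq (GRCm38.p6). All 9 libraries entered 1 limma-trend fit in R 4.3.3 with limma 3.58.1, with robust moderation and no covariates on the log2(value + 1) scale, for genes with a value of at least 1 in at least 3 libraries. Benjamini-Hochberg adjustment ran over 13771 genes, and calls were made under 0.05. The fit was tested on simulated data. The members, lists and marker sets were chosen with earlier results of these data known. Named genes were the 10 members, up to 4 called genes with the largest absolute fold change per list, or the 2 with the highest mean value where none was called, and the 5 nearest profiles, unless stated otherwise. Each comparison was refitted under 20 alternatives. Protein sequence features were not analysed here. Per the labels, same-numbered circulating and irradiated libraries share a title code whose meaning is not stated.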

Additional observations from a re-analysis of the deposited data

How the results depend on the processing

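Of 600 refitted member values, 559 kept their direction and side of the threshold. Members called higher in circulating than in endogenous cells numbered 4. They numbered 1 with a replicate block on the 2 groups alone and 2 to 5 when single libraries were left out. The 23 wider genes called higher became 4 on the 2 groups alone, 1 with the replicate block on those groups, 13 with library size scaling and 4 to 34 without single libraries. All genes called higher, 734 in the main fit, became 165, 55 and 336 in those settings and 185 to 1198 without single libraries. The 1 wider gene called lower became 0 with sample weights, on the 2 groups alone, with either replicate block and with voom, 3 with library size scaling, and 0 to 3 without single libraries. In circulating against irradiated cells the 0 wider genes called lower became 0 to 1 without single libraries. In irradiated against endogenous cells the 0 members called became 3 with sample weights, 3 on the 2 groups alone, 4 with the replicate block on those groups, and 0 to 1 without single libraries. All genes called higher there, 65 in the main fit, became 615, 503 and 327 in those settings and 3 to 200 without single libraries. The 0 wider genes called higher there became 1 with the filter at 5, 16 with sample weights, 18 on the 2 groups alone, 1 with the replicate block, 11 with the replicate block on the 2 groups, and 0 to 9 without single libraries. The 0 called lower became 1 with sample weights and 1 on the 2 groups alone. Fits on the 2 groups alone hold fewer samples; the cause of the other changes was not tested.

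Signs that turned were all uncalled. With library size scaling Herpud1 was -0.0644 in circulating against endogenous cells, Xbp1 was -0.0173 in circulating against irradiated cells and Atf4 was -0.0385 in irradiated against endogenous cells. Without single libraries, circulating against irradiated values ran from -0.33 to 0.29 for Calr, from -0.24 to 0.41 for Xbp1 and from -0.0163 to 0.29 for Atf4. Irradiated against endogenous values ran from -0.11 to 0.35 for Dnajb9 and from -0.21 to 0.0372 for Herpud1.

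Same-numbered libraries of different groups had correlations of -0.02 to 0.18 in their deviations from the group means across genes. Between circulating and irradiated libraries, which share title codes, these were 0.03 to 0.18, against -0.17 to 0.11 for different numbers. The meaning of the codes is not stated, so the main fit used no pairing. Whether these libraries are paired was not tested. With the replicate block on all 9 libraries 5 members were called higher in circulating than in endogenous cells, Calr added. All genes called between circulating and endogenous cells numbered 734 higher and 455 lower, and 165 and 87 on the 2 groups alone. Between irradiated and endogenous cells they numbered 65 and 18, and 503 and 278 on the 2 groups alone. Of genes called there, 78.31% were higher as deposited and 65.33% with library size scaling. Depth limits Dnajb9 and Ddit3 most, at a lowest estimated count of 139 and 204.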

Other observations

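Beside the ER lists, mature neutrophil markers did not follow the chaperones. Over 10 such genes the median log2 fold change in circulating against endogenous cells was -0.92, with 2 lower and none higher. Of all genes, 3.3% were called lower and 5.33% higher in this comparison, and these shares stand beside each count in this section. Their summed values ran from 1168 to 1854 in circulating, 833 to 2021 in irradiated and 1129 to 2329 in endogenous libraries. Mast cell and basophil markers, 6 genes, summed to 163, 649 and 802 in circulating, 223, 292 and 350 in irradiated and 205, 183 and 173 in endogenous libraries. Of these 1 was called higher in circulating than in endogenous cells, and Gata2 alone was negative (-0.51). Circulating replicate 1, which held the least Xbp1 and Calr of its group, also had the lowest mast cell and basophil sum. It was lowest of its group as well for the myeloid progenitor, plasma cell, erythroid, dendritic cell, B lineage and T and NK sums. It was not lowest for the neutrophil or the endothelial and perivascular sums. Erythroid markers, 7 genes, summed to 156, 386 and 788 in circulating, 121, 154 and 433 in irradiated and 117, 126 and 161 in endogenous libraries, with 1 called higher. Car1 alone held 70.8, 353 and 610 of the circulating sums. Against endogenous cells, 4 of the 7 were positive in circulating cells and 3 negative: Hbb-bs (-2.11), Alas2 (-1.10) and Hba-a1 (-0.80). Dendritic cell markers summed to 1972, 5975 and 2205 in circulating, 1722, 1626 and 963 in irradiated and 1441, 1392 and 1362 in endogenous libraries, with 3 of 7 called higher. Cd74, H2-Ab1 and H2-Aa held 2869, 1753 and 822 of the 5975. Against endogenous cells, 5 of the 7 were positive in circulating cells and 2 negative, Flt3 (-0.73) and Ccr9 (-1.38). Siglech, not tested, averaged 0.26 ± 0.18 in circulating and 5.11 ± 5.52 in endogenous cells. B lineage markers summed to 104, 285 and 215 in circulating, 104, 107 and 83.5 in irradiated and 102, 79.3 and 74.6 in endogenous libraries, with 2 of 6 called higher. Of T and NK markers 1 of 5, Nkg7, was called higher, and it also stands in the myeloid list. Of the 2 endothelial and perivascular markers measured, 1 was called lower, and their sums ran from 103 to 115 in circulating, 119 to 156 in irradiated and 149 to 170 in endogenous libraries. The part of these markers in the chaperone values was not tested.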
